A study of Homo sapiens with 12 samples.

Results

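The genes described are 10 transcripts that read out signaling through the kinase ERK or encode proteins that restrain it. They were chosen by symbol as DUSP1, DUSP4, DUSP5, DUSP6, SPRY2, SPRY4, SPRED1, SPRED2, PHLDA1 and ETV5, out of 55765 symbols counted in each library. All are called ERK feedback genes here, although PHLDA1 and ETV5 stand for ERK output. All 10 were counted in all 12 libraries and passed the filter on low counts in every comparison. The cells were Hs 578T, a human TNBC (triple-negative breast cancer) line transduced with lentiviral vectors for expression of GFP as a control or of full-length NRF2, the transcription factor that drives antioxidant genes. Both kinds of cells were grown for 8 h in a medium with 10% serum, 0.2 mM methionine and 2 mM glutamine, either with 0.8 mM cystine (with Cyss) or with none added (without Cyss). The 4 groups, GFP with Cyss, GFP without Cyss, NRF2 with Cyss and NRF2 without Cyss, held 3 libraries each. The regular growth medium lists 0.01 mg/ml insulin and the deprivation medium lists none. This applies to both arms, since the cells with Cyss were kept in the same medium with cystine added. The model is a single cell line, and the NRF2 came from a transgene rather than from the cells' own gene alone.

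ERK is the last kinase of the RAS-RAF-MEK-ERK cascade, which carries signals from growth factor receptors to the nucleus. Active ERK switches on genes whose products damp the same cascade, so that the mRNA of these genes rises and falls with pathway output: dual-specificity phosphatases (DUSPs) remove the activating phosphates from ERK and related kinases, while Sprouty (SPRY) and Spred proteins act higher up, between receptor and RAF. Hs 578T carries an activating HRAS mutation, so the cascade is driven in this line at baseline.

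Promoter sequences are shown for 3 members so that the letters searched can be seen: DUSP1 and SPRY4, in which a searched motif was found, and DUSP6, the member with the largest change, in which none was. Each line is the 250 bases before the annotated start, read 5′ to 3′ on the gene's strand from RefSeq (GRCh38.p14), with motif matches in capitals. The stretches are chr5:172771196-172771445, chr12:89352502-89352751 and chr5:142324248-142324497, all on the minus strand.
DUSP1: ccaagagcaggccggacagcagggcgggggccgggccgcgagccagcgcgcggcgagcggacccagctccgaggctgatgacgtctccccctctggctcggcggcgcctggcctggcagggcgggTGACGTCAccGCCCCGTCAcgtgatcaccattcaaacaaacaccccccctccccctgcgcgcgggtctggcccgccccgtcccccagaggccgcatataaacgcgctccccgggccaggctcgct
DUSP6: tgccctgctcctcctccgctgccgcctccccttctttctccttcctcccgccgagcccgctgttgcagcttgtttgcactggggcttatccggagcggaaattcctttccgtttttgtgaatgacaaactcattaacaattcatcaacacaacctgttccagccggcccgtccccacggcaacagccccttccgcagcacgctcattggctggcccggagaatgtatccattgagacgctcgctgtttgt
SPRY4: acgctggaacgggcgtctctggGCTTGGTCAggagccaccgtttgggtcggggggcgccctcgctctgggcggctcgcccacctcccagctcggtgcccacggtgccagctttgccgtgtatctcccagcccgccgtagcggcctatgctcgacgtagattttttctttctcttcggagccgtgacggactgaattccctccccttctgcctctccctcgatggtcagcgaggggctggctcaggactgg

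In DUSP1 the capitals mark a cAMP response element (CRE, TGACGTCA) from -125 to -118 relative to the start, and an antioxidant response element (ARE, TGACNNNGC), the kind of site NRF2 binds, matched on the other strand from -115 to -107. In SPRY4 they mark an ARE on the other strand from -228 to -220. Of the 10 members, 7 had an entry, with 10 start sites in all (no entry for DUSP4, DUSP5 and ETV5). Both strands were searched for 6 motifs, and among the 7 genes an ARE was found in 2, a CRE in 1 and a C/EBP-ATF element (TGATGNAA) in 1, at the other start of SPRED2. The ETS motif (CCGGAAGT), the AP-1 motif (TGANTCA) and the CArG box were found in none. Over all 35116 promoter entries of the same length, an ARE was found in 10.9%, AP-1 in 6.57%, ETS in 3.42%, C/EBP-ATF in 3.14%, CRE in 1.65% and the CArG box in 1.16%. These matches describe letters in a window only.

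The libraries held 27250993 to 44596870 reads on genes (median 32857536), of which 11944 to 34724 fell on the 10 members. NFE2L2, the gene that encodes NRF2, was counted at 3662 to 4682 normalized reads in the 6 GFP libraries and at 6567 to 8448 in the 6 NRF2 libraries, so that no library went against its label, although these reads do not separate the transgene from the cells' own gene. The labels call the line epithelial, whereas the mesenchymal markers VIM, FN1, CD44, ZEB1, TWIST1 and CDH2 were high in every library and the epithelial markers CLDN3, CLDN7 and EPCAM were at 0 or at most 3.28 normalized reads. CDH1 stood at 3.07 to 13.8, OCLN at 2.01 to 10.5, ESR1 at 6.97 to 13.1, CLDN4 at 7.28 to 21.9 and PGR at 0 to 25.5. Of the blood and endothelial markers, CD3E was at 0, VWF at 1.01 to 5.48, CD68 at 8.01 to 19.8 and PTPRC at 18.8 to 53.4. PECAM1 was not among the counted symbols. GFP without Cyss replicate 3 stood apart from its group on the first principal component (36.4% of the variance). Its score was 4.71, between -7.38 and -5.01 for the other GFP libraries without Cyss and 20.5 to 22.9 for the NRF2 libraries without Cyss. In this library NFE2L2 was 4489 normalized reads, the lowest of its group, its mitochondrial share of reads was 2.35% and its share of reads outside genes was 6.07%, both within the range of the other libraries. For the response of GFP cells, the log2FC of each member is given with and without GFP without Cyss replicate 3. For NRF2 against GFP cells without Cyss and for the interaction, the text gives the largest and smallest values without it. NRF2 without Cyss replicate 1 also differed from its group. Its share of reads outside genes, 7.84%, was the highest of all libraries. Its score on the second principal component was 7.93, against 0.99 and -0.81 for replicates 2 and 3. The largest difference between replicates was between it and replicate 3 (chi-square per degree of freedom 13).

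In cells without Cyss, all 10 feedback genes were higher in NRF2 than in GFP cells and higher than in NRF2 cells with Cyss, with no overlap between libraries in either comparison. Of all genes tested, 5.98% and 6.81% were called higher in these comparisons, and 18.1% and 18.7% were higher without overlap. In GFP cells only ETV5 rose when Cyss was removed (1.57% of all genes were called higher), and in the presence of Cyss only DUSP4 was called higher in NRF2 than in GFP cells (1.36% of all genes). The ETV5 call was lost without GFP without Cyss replicate 3. The summed count of the members, scaled to library size as RPM, was 442.5 ± 29.3 (SD, n = 3) in GFP cells with Cyss, 525.6 ± 113 in GFP cells without Cyss, 425.3 ± 8.35 in NRF2 cells with Cyss and 981.2 ± 65.6 in NRF2 cells without Cyss. A gene was called changed when the Benjamini-Hochberg adjusted p of edgeR's quasi-likelihood test over all genes was under 0.1 and the log2 fold change (log2FC) was above 0.32 in size. These are counts relative to each library's total, so fewer cells of one kind and less RNA per cell cannot be told apart.

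**Figure D1:**
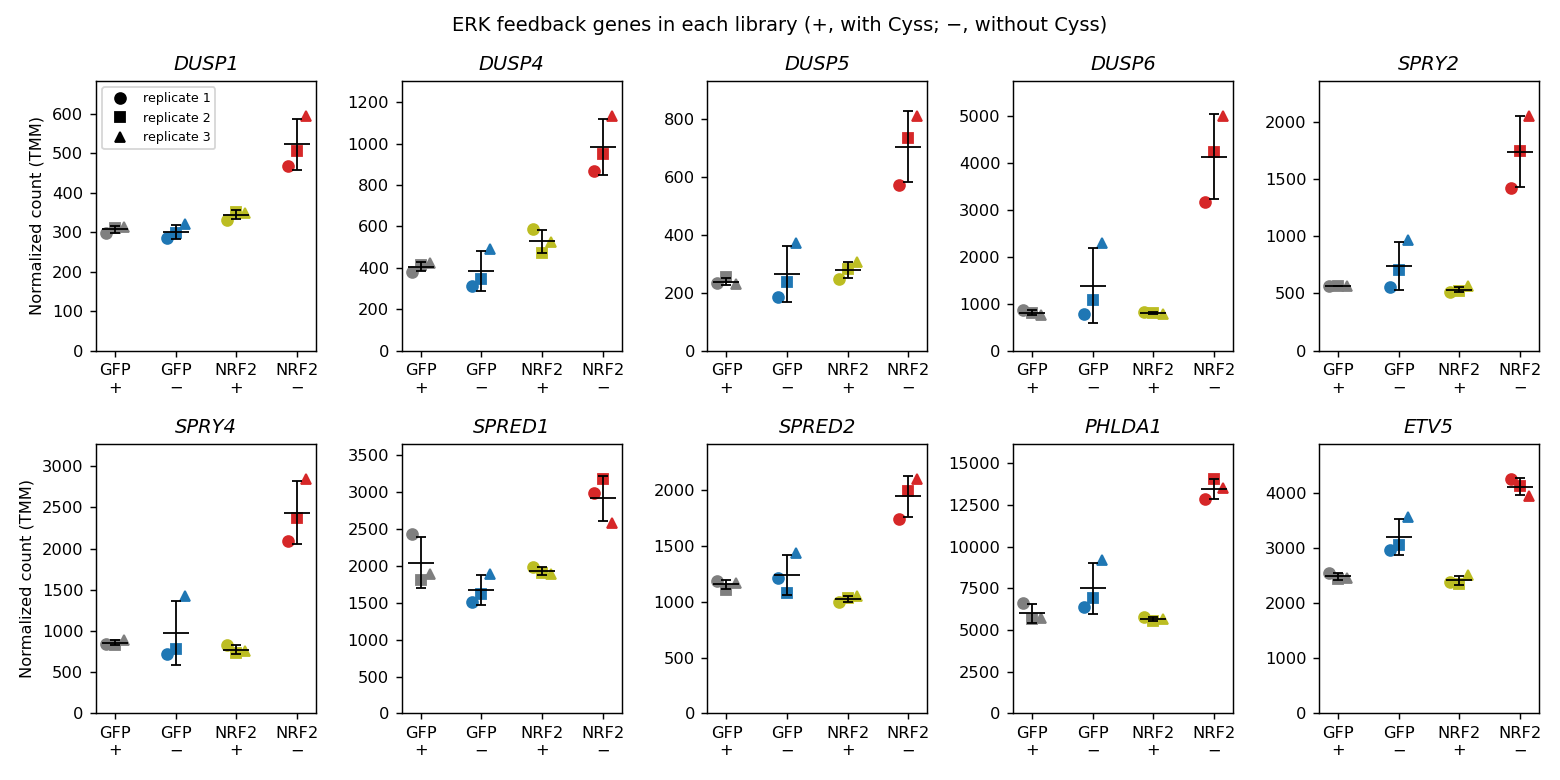
TMM-normalized read counts (linear axes from 0) of the 10 ERK feedback genes in each of the 12 libraries, by group; + is with Cyss and − is without Cyss. Points are libraries, shaped by replicate number, and bars are the mean ± SD of 3 libraries. In every panel the 3 NRF2 libraries without Cyss lie above all others, for DUSP6 at 3172 to 4987, and GFP without Cyss replicate 3 is the highest of its group.

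The phosphatases include nuclear enzymes that act on several MAP kinases (DUSP1 and DUSP4), a nuclear enzyme selective for ERK (DUSP5) and a cytoplasmic one selective for ERK (DUSP6). The largest change belonged to DUSP6 (chromosome 12, 89741012 to 89746278 in GRCh37, minus strand). It was counted at 862, 806 and 753 normalized reads in GFP cells with Cyss, at 789, 1079 and 2291 in GFP cells without Cyss, at 833, 809 and 791 in NRF2 cells with Cyss, and at 3172, 4224 and 4987 in NRF2 cells without Cyss. The 2 groups with Cyss were alike, the NRF2 group without Cyss was above every other library, and the GFP group without Cyss ran from the level with Cyss to well above it. Removal of Cyss raised DUSP6 by a log2FC of 2.35 (SE 0.115, edgeR adjusted p = 3.02e-09) in NRF2 cells, a 5.10-fold rise. In GFP cells the log2FC was 0.78 (95% CI 0.19 to 1.37, edgeR adjusted p = 0.147), and without replicate 3 it was 0.21 (adjusted p = 0.359). Counting ignored strand and 28.6% of DUSP6 exon bases overlap an unnamed gene on the other strand (ENSG00000274021) in the annotation used here. Reads there were set aside as ambiguous if the authors' annotation held that gene, and were counted for DUSP6 if it did not.

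DUSP5 (chromosome 10, 112257665 to 112271291) was counted at 232, 253 and 231 normalized reads in GFP cells with Cyss, at 187, 236 and 374 without, at 249, 282 and 306 in NRF2 cells with Cyss and at 573, 734 and 810 without. Again the NRF2 libraries without Cyss were the highest, and the GFP libraries without Cyss lay on both sides of those with Cyss. The log2FC on removal of Cyss was 1.34 (SE 0.11, edgeR adjusted p = 5.59e-07) in NRF2 cells and 0.15 (95% CI -0.24 to 0.54, adjusted p = 0.709) in GFP cells; without replicate 3 the GFP value was -0.18. The pseudogene DUSP5P1, a near copy, was counted at 22 to 60 reads per library.

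DUSP4 (chromosome 8, 29190581 to 29208201) was the only member to pass both thresholds between NRF2 and GFP cells with Cyss present. It was counted at 379, 416 and 423 normalized reads in GFP cells with Cyss and at 587, 474 and 525 in NRF2 cells with Cyss. These groups did not overlap, with a log2FC of 0.39 between them (SE 0.0769, edgeR adjusted p = 0.00947), which was 0.31 without NRF2 with Cyss replicate 1 and then no longer passed the fold threshold. Without Cyss, DUSP4 was counted at 312, 347 and 492 in GFP cells and at 868, 949 and 1133 in NRF2 cells. It rose in NRF2 cells by a log2FC of 0.90 (SE 0.0922, edgeR adjusted p = 5.28e-06), whereas in GFP cells the log2FC was -0.08 (95% CI -0.36 to 0.20, adjusted p = 0.786). Without replicate 3 the GFP value was -0.30 (SE 0.0832, edgeR adjusted p = 0.0888), past the p threshold and just under the fold threshold.

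DUSP1 (chromosome 5, 172195099 to 172198198) is an immediate early gene with a small change here. It was counted at 297, 311 and 314 normalized reads in GFP cells with Cyss, at 286, 297 and 321 without, at 331, 352 and 350 in NRF2 cells with Cyss and at 467, 506 and 594 without. The GFP groups overlapped, the NRF2 libraries with Cyss were slightly above both, and those without Cyss were clearly above. In NRF2 cells the rise was 0.60 (log2FC, SE 0.0844, edgeR adjusted p = 0.000111), and in GFP cells the log2FC was -0.02 (95% CI -0.18 to 0.13, adjusted p = 0.896), an interval that holds no change of the size seen in NRF2 cells. Without replicate 3 the GFP value was -0.07.

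Sprouty proteins are inhibitors induced by receptor tyrosine kinase signaling that block the step from receptor to RAS and RAF. SPRY2 (chromosome 13, 80910111 to 80915261) was counted at 566, 567 and 561 normalized reads in GFP cells with Cyss, at 553, 701 and 970 without, at 514, 526 and 561 in NRF2 cells with Cyss and at 1424, 1743 and 2048 without. SPRY4 (chromosome 5, 141689992 to 141706020) was counted at 846, 832 and 896, then at 719, 784 and 1420, then at 836, 730 and 759, and at 2087, 2373 and 2844 in the same order of groups. Both genes shared the pattern of DUSP6, with a wide GFP group without Cyss and a separate NRF2 group without Cyss. The log2FC in NRF2 cells was 1.71 for SPRY2 (SE 0.0984, edgeR adjusted p = 1.57e-08) and 1.66 for SPRY4 (SE 0.0885, edgeR adjusted p = 7.13e-09). In GFP cells it was 0.39 for SPRY2 (95% CI 0.08 to 0.71, edgeR adjusted p = 0.164) and 0.19 for SPRY4 (95% CI -0.21 to 0.59, adjusted p = 0.635). Without replicate 3 these values were 0.15 for SPRY2 and -0.19 for SPRY4.

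Spred proteins resemble Sproutys and recruit neurofibromin, the RAS-inactivating product of NF1, to the membrane. SPRED1 (chromosome 15, 38545037 to 38649450) was counted at 2440, 1810 and 1891 normalized reads in GFP cells with Cyss, at 1506, 1615 and 1898 without, at 1988, 1898 and 1893 in NRF2 cells with Cyss and at 2987, 3181 and 2588 without. Its log2FC in GFP cells was the lowest of the 10 members, at -0.28 (95% CI -0.51 to -0.06, edgeR adjusted p = 0.164), against 0.60 in NRF2 cells (SE 0.0692, edgeR adjusted p = 1.6e-05). Without replicate 3 the GFP value was -0.39 (SE 0.101, edgeR adjusted p = 0.0756) and passed both thresholds.

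SPRED2 (chromosome 2, 65537985 to 65659771) was counted at 1187, 1111 and 1174 normalized reads in GFP cells with Cyss, at 1216, 1080 and 1435 without, at 996, 1031 and 1051 in NRF2 cells with Cyss and at 1746, 1992 and 2104 without. With Cyss the NRF2 libraries were all below the GFP libraries, by a log2FC of -0.16 (SE 0.0485, edgeR adjusted p = 0.0846) that is under the fold threshold. Without Cyss the order was turned. The log2FC on removal of Cyss was 0.93 (SE 0.0617, edgeR adjusted p = 6.65e-08) in NRF2 cells and 0.11 (95% CI -0.07 to 0.29, adjusted p = 0.509) in GFP cells, where it was -0.01 without replicate 3.

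PHLDA1 encodes a pleckstrin-homology-like protein whose mRNA is induced by ERK signaling. PHLDA1 (chromosome 12, 76419227 to 76425556) had the highest counts of the 10, at 6626, 5628 and 5719 normalized reads in GFP cells with Cyss, at 6358, 6900 and 9207 without, at 5764, 5514 and 5666 in NRF2 cells with Cyss and at 12867, 14053 and 13488 without. The NRF2 libraries without Cyss were tight and far above the rest: log2FC 1.26 (SE 0.0459, edgeR adjusted p = 1.92e-10). In GFP cells it was 0.33 (95% CI 0.09 to 0.56, edgeR adjusted p = 0.127), and 0.15 without replicate 3. Of its exon bases, 9.35% overlap PHLDA1-AS1 on the other strand.

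ETV5 encodes an ETS transcription factor made when ERK is active, and it was the exception in GFP cells. ETV5 (chromosome 3, 185764103 to 185828107) was counted at 2561, 2448 and 2470 normalized reads in GFP cells with Cyss and at 2970, 3064 and 3575 without. All 3 libraries without Cyss were above all 3 with Cyss, and the log2FC was 0.37 (SE 0.0616, edgeR adjusted p = 0.0045). Without replicate 3 it was 0.28 (edgeR adjusted p = 0.00414), which passes the p threshold but not the fold threshold. In NRF2 cells it was counted at 2389, 2355 and 2516 with Cyss and at 4264, 4139 and 3962 without, a log2FC of 0.77 (SE 0.051, edgeR adjusted p = 6.22e-08). Of its exon bases, 2.84% overlap DGKG on the same strand.

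Compared per length of exon, the 10 levels spanned a wide range. In GFP cells with Cyss the order in RPKM (reads scaled to exon length and library size) was PHLDA1 30.2 ± 2.78 (SD, n = 3), ETV5 12.9 ± 0.31, SPRED1 7.86 ± 1.32, SPRED2 6.26 ± 0.219, DUSP6 6.22 ± 0.421, SPRY2 5.23 ± 0.0269, DUSP1 4.54 ± 0.127, SPRY4 3.90 ± 0.153, DUSP5 2.80 ± 0.144 and DUSP4 1.66 ± 0.0967. SPRED2 and DUSP6 overlapped across libraries, and no other neighbours in that order did. In NRF2 cells without Cyss, DUSP6 had moved from the fifth place to the second, at 31.8 ± 7.03 RPKM (SD, n = 3), behind PHLDA1 at 67.8 ± 2.99 and ahead of ETV5 at 21.2 ± 0.783. SPRY2 followed at 16.1 ± 2.89, then SPRED1 at 11.2 ± 1.16, SPRY4 at 11.1 ± 1.74, SPRED2 at 10.5 ± 0.99, DUSP5 at 8.28 ± 1.42, DUSP1 at 7.73 ± 0.961 and DUSP4 at 4.02 ± 0.555. From SPRED1 to DUSP1 each gene overlapped its neighbour.

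The response of GFP cells addresses what 8 h without Cyss did to these genes in the control. One of 10 members rose (ETV5) and none fell, against 1.57% called higher and 0.533% called lower of 17452 genes tested. The median log2FC of the members was 0.17, and 0.00 over all genes, and the value was above 0 for 7 of the 10. Without GFP without Cyss replicate 3 the median was -0.04 and the value was above 0 for 4 of the 10. The groups did not overlap for 1 member, ETV5, against 10.8% of all genes that were higher without overlap. Replicate 3 stood at the top of this group. It was the highest of the 3 GFP libraries without Cyss in 10 of 10 members, from 1.10 times the mean of replicates 1 and 2 for DUSP1 to 2.45 times for DUSP6, and the median coefficient of variation (CV) of the members was 22.6% in this group, against 4.53% in GFP cells with Cyss, 3.41% in NRF2 cells with Cyss and 13.1% in NRF2 cells without Cyss. Over all genes the median CV was 5.21% to 7.54% in the 4 groups. In NRF2 cells without Cyss, replicate 3 was also the highest library for 7 of 10 members. Without GFP replicate 3, no member was called higher and SPRED1 was called lower.

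In NRF2 cells all 10 members rose without Cyss, against 6.81% of 17266 genes called higher. The log2FC ran from 0.60 (SPRED1 and DUSP1) to 2.35 (DUSP6), with a median of 1.09 against -0.01 for all genes. Scaled by library size only, the share of called genes that were higher was 40.1% in place of 57%, and all 10 members were still called. No member had overlapping groups, where 18.7% of all genes were higher without overlap. The plot of the responses sets these values beside those of GFP cells.

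**Figure D2:**
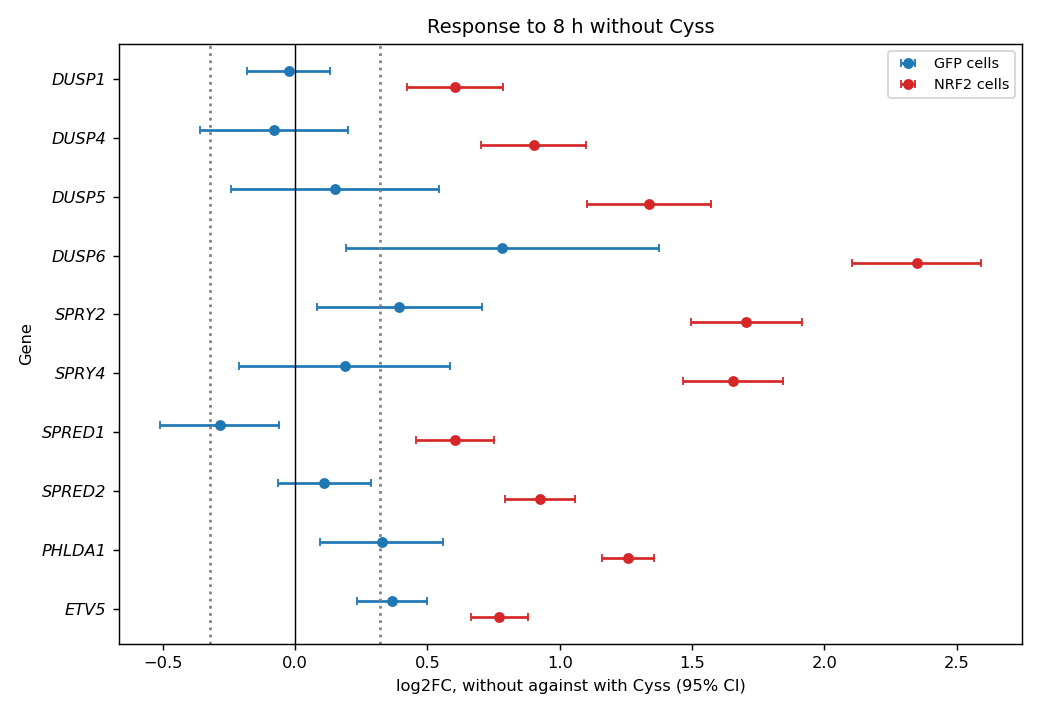
log2FC of each ERK feedback gene without against with Cyss (x axis) in GFP cells (blue) and in NRF2 cells (red), with 95% confidence intervals derived from edgeR's test. Dotted lines mark the fold threshold of 0.32 in size. All 10 red points lie right of the line, from 0.60 to 2.35, and of the blue points only ETV5, at 0.37, was called.

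With Cyss present, NRF2 cells differed little from GFP cells in these genes. One of 10 was called higher (DUSP4) and none lower, against 1.36% and 0.201% of 17449 genes. The median log2FC was -0.05, and 6 of the 10 values were below 0. Groups did not overlap for DUSP1 and DUSP4, higher in NRF2 cells, or for SPRY2 and SPRED2, lower, where 10.7% of all genes were higher and 14.8% lower without overlap. DUSP1 had a log2FC of 0.18 (edgeR adjusted p = 0.169) and DUSP5 one of 0.24 (95% CI 0.06 to 0.42, edgeR adjusted p = 0.145).

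Without Cyss, all 10 members were higher in NRF2 than in GFP cells, against 5.98% of 17297 genes, and for all 10 the groups did not overlap (18.1% of all genes were higher without overlap). The log2FC was 1.57 for DUSP6 (SE 0.283), 1.41 for DUSP5, 1.36 for DUSP4, 1.32 for SPRY4 and 1.23 for SPRY2, and it was 0.85 for PHLDA1, 0.80 for SPRED1, 0.79 for DUSP1, 0.65 for SPRED2 and 0.36 for ETV5, with edgeR adjusted p from 0.000224 (DUSP4) to 0.00444 (ETV5). Without GFP replicate 3 each value was larger, reaching 2.15 for DUSP6 and 0.46 for ETV5. The direction of this shift was fixed, as that library was the highest of its group for each member. Without GFP replicate 1 in place of it, ETV5 was 0.31 and below the fold threshold.

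**Figure D3:**
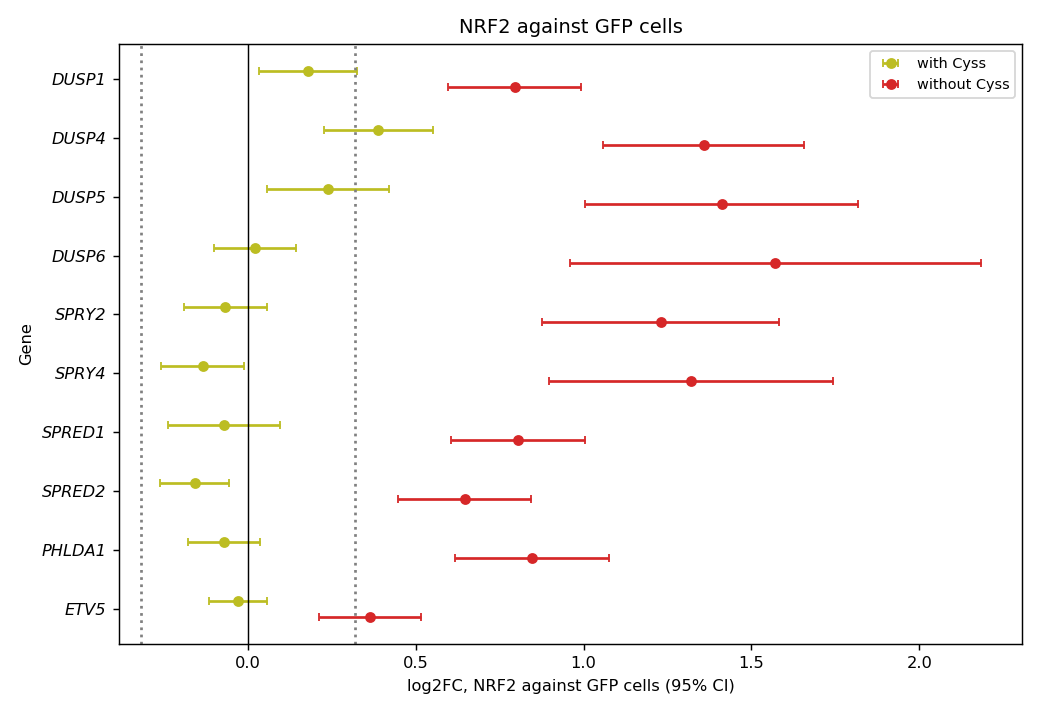
log2FC of each ERK feedback gene in NRF2 against GFP cells (x axis), with Cyss (yellow) and without Cyss (red), with 95% confidence intervals derived from edgeR's test. Dotted lines mark the fold threshold of 0.32 in size. With Cyss the points lie between -0.16 and 0.39, and without Cyss between 0.36 and 1.57.

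The difference between the responses was tested as the interaction of NRF2 and Cyss deprivation over the 12 libraries, which is the log2FC in NRF2 cells minus that in GFP cells. All 10 members passed (adjusted p under 0.1), against 8.97% of 17674 genes called higher. The interaction was 1.57 for DUSP6 (SE 0.349, edgeR adjusted p = 0.00963), 1.47 for SPRY4 (SE 0.239, edgeR adjusted p = 0.00123) and 1.31 for SPRY2 (SE 0.202, edgeR adjusted p = 0.000964). It was smallest for ETV5, at 0.41 (SE 0.0846, edgeR adjusted p = 0.00617), the gene that rose in both kinds of cells. Without GFP without Cyss replicate 3 the interaction was larger for all 10, from 0.50 for ETV5 to 2.14 for DUSP6, and all 10 still passed. That library was the highest of its group for all 10, so the direction of this shift was fixed beforehand. The 4 pairwise comparisons and the interaction share libraries and are not independent of each other.

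**Figure D4:**
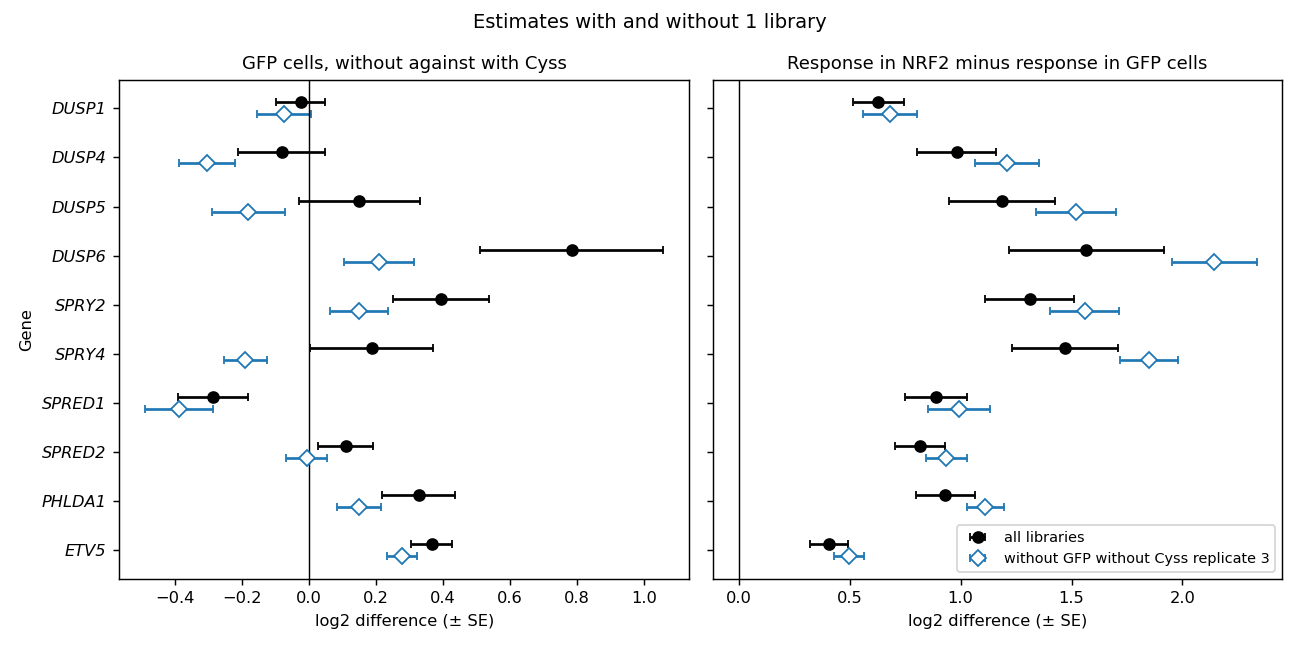
Estimates (log2, ± SE derived from edgeR's test) for each ERK feedback gene with all libraries (black) and without GFP without Cyss replicate 3 (blue, open). Left, the response of GFP cells to removal of Cyss. Right, the interaction. Without that library DUSP6 moves from 0.78 to 0.21 on the left and from 1.57 to 2.14 on the right.

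All 10 members were highest in NRF2 cells without Cyss, so that this group difference alone makes them correlate over the 12 libraries. Within that group they did not all move together. Replicate 3 was the highest for 7 members and the lowest for SPRED1 and ETV5. As a description, the Pearson correlation of each member with the mean of the other 9 was between 0.807 (SPRED1) and 0.987 (SPRY4), points that share library and group. Among the 10 other genes most like the members' mean over the 12 libraries, of 17674, were ITGA2 (r = 0.996), STC1, NAV3, BMP2, TBX3, SERPINB2, TGFBR2, TRAK1 and ARHGAP22 (r = 0.991). SERPINB2, an inhibitor of plasminogen activators, went from a mean of 1296 normalized reads in GFP cells with Cyss and 1942 without to 1481 in NRF2 cells with Cyss and 6735 without. BMP2, a secreted growth factor, had means of 524, 638, 513 and 1891 in the same order. ITGA2, a collagen-binding integrin subunit, had means of 7217, 7941, 7344 and 16507. The mean of each gene named here was highest in NRF2 cells without Cyss, which follows from picking genes by likeness to the members' mean.

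Other genes that ERK output is known to raise, were taken from a list of 14. In NRF2 cells without Cyss against with Cyss 13 of 14 rose, with a median log2FC of 0.66, against 6.81% of all genes called higher. The largest value belonged to EGR1, an immediate early transcription factor, at 2.67 (SE 0.0839, edgeR adjusted p = 1.25e-10), followed by LIF, a cytokine, at 1.58, IER3 at 1.17, MAFF at 1.06 and FOS at 1.03. EPHA4, an ephrin receptor, was not called, at -0.19. In GFP cells 2 of 14 rose, EGR1 by 0.91 (SE 0.194, edgeR adjusted p = 0.0221) and MAFF by 0.38 (edgeR adjusted p = 0.0555), and without replicate 3 only EGR1 did, by 0.58 (SE 0.114, edgeR adjusted p = 0.0179). The median of the 14 in GFP cells was 0.15, and 0.02 without replicate 3, and 1.57% of all genes were called higher there with all libraries. The interaction passed for 13 of 14, against 8.97% of all genes called higher. EGR1 was also higher in NRF2 than in GFP cells with Cyss, by 0.77 (edgeR adjusted p = 0.000105), with means of 171 ± 20.6 (SD, n = 3) normalized reads in GFP cells and 288 ± 11.3 in NRF2 cells. Without Cyss EGR1 was at 319 ± 114 in GFP and at 1831 ± 208 in NRF2 cells.

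The family has other phosphatases that are not members. Of 6 listed, 5 were tested (DUSP9 was too low). In NRF2 cells DUSP10, which acts on p38 and JNK, rose by 0.67 (SE 0.0602, edgeR adjusted p = 1.39e-06) and DUSP8, which acts on JNK and p38, fell by 0.67 on the log2 scale (SE 0.146, edgeR adjusted p = 0.00398). DUSP7 was not called in either kind of cell. Its mean went from 2051 normalized reads with Cyss to 2240 without in NRF2 cells, and from 2084 to 1903 in GFP cells. The median log2FC of the 5 was 0.12 in NRF2 cells. In GFP cells none of the 5 was called. Of all genes, 6.81% were called higher and 5.14% lower in NRF2 cells, and 1.57% and 0.533% in GFP cells. The interaction passed for 2 of the 5, against 8.97% of all genes called higher. SPRY1, the only other Sprouty or Spred gene counted high enough to test, had a log2FC of -0.43 in NRF2 cells (edgeR adjusted p = 0.229) and 0.18 in GFP cells (adjusted p = 0.658).

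Most genes of the cascade itself moved little. Of 24 listed genes, among them SOS1, the RAS and RAF genes and MAP2K1, 2 rose in NRF2 cells without Cyss. They were RASA2 by 0.53 (SE 0.0514, edgeR adjusted p = 2.89e-06) and RASA1 by 0.46 (SE 0.0466, edgeR adjusted p = 5.3e-06). Both encode RAS-inactivating proteins, as does NF1, which was not called there. The mean of NF1 in NRF2 cells was 3521 normalized reads with Cyss and 3704 without. None of the 24 was called in GFP cells or between NRF2 and GFP cells with Cyss, and the median log2FC in NRF2 cells was 0.06. Few of all genes were called in those comparisons, 1.57% higher and 0.533% lower in GFP cells, and 1.36% and 0.201% with Cyss. The interaction, for which no fold threshold was set, passed for 9 of the 24, all positive, between 0.15 and 0.61. Of all genes, 6.81% were called higher in NRF2 cells without Cyss and 8.97% in the interaction.

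Upstream of the cascade, 11 of 14 listed receptors and ligands were tested and 7 rose in NRF2 cells without Cyss. They were HBEGF, a ligand of the EGF receptor, by 1.16 (SE 0.114, edgeR adjusted p = 3.49e-06), FGF2 by 0.66, EGFR itself by 0.61, PDGFRA by 0.48, PDGFA by 0.36, MET by 0.34 and AXL by 0.33. In GFP cells none of the 11 was called, where 1.57% of all genes were called higher and 0.533% lower. The interaction passed for the same 7. Of all genes, 6.81% were called higher in NRF2 cells without Cyss and 8.97% in the interaction. The counts for HBEGF were 312.8 ± 33.4 (SD, n = 3) in GFP cells with Cyss, 317.0 ± 67.3 without, 288.9 ± 21.6 in NRF2 cells with Cyss and 644.0 ± 126 without. RNA counts do not show the activity of ERK, which was not measured here.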

How the data were processed

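RNA was measured in 12 libraries of Hs 578T cells. Per the labels and the study's methods, the authors prepared mRNA libraries without strand information (TruSeq RNA v2), aligned single-end reads to hg19 with TopHat2 2.1.0 and counted them per gene with HTSeq 0.11.2, and the deposited values are raw read counts per gene symbol, not normalized and one file per library. Counting ignored strand. Here 5 rows that count reads outside genes and 523 rRNA genes were removed, leaving 55242 genes, and 4 pairwise comparisons of 3 against 3 libraries and the interaction over 12 libraries were fitted with edgeR 4.0.16 (R 4.3.3): a gene was kept if 1 of the groups compared averaged 10 or more normalized reads, TMM factors, quasi-likelihood test, Benjamini-Hochberg adjustment over all genes tested. Called means adjusted p under 0.1 and log2FC above 0.32 in size, the thresholds of the study; for the interaction only the adjusted p applies. DESeq2 1.42.0 was an alternative. Exact permutation of 3 against 3 libraries cannot give p below 0.1.

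The members and gene lists were chosen with earlier results of these data known. By rule, genes named with values are all members, any called gene of the lists, NFE2L2, and the 10 genes with the highest correlation with the members' mean (log2 CPM, pseudocount 0.5), some of which are not reported here. EPHA4, SPRY1, DUSP9, SOS1 and MAP2K1 are named outside this rule, chosen after their values were seen, and cell markers come from a separate list. Reads per library ranged from 27250993 to 44596870, and every member had at least 186 reads in each library. The labels do not say that the replicates are separate cultures, so p-values measure the spread between these libraries, which may be technical. All pairs of replicates differed by more than sampling noise (chi-square per degree of freedom 2.22 to 13). The labels do not say whether replicate numbers pair libraries, and the main fits did not pair them. Over all genes, correlations of same-numbered deviations were -0.0835 to 0.169, which cannot decide this for the members. The highest, 0.156 and 0.169, were between NRF2 and GFP cells without Cyss. Positions and exon lengths came from the GENCODE annotation lifted to GRCh37, promoters from RefSeq GRCh38.p14. The scripts were tested on simulated data. Plots used matplotlib 3.10.9.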

Additional observations from a re-analysis of the deposited data

Results flagged for a closer look

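For all 10 members the response to Cyss deprivation differed between NRF2 and GFP cells in the test of the interaction, and each was therefore marked for a closer look. The difference of the 2 responses (log2, NRF2 minus GFP) was 0.63 for DUSP1, 0.98 for DUSP4, 1.19 for DUSP5, 1.57 for DUSP6, 1.31 for SPRY2, 1.47 for SPRY4, 0.89 for SPRED1, 0.82 for SPRED2, 0.93 for PHLDA1 and 0.41 for ETV5. In edgeR's quasi-likelihood test the adjusted p ranged from 0.000671 (SPRED2 and PHLDA1) to 0.00963 (DUSP6). DUSP6 combined the largest difference with the largest SE, 0.349, and GFP without Cyss replicate 3 moved with it: without that library the SE was 0.19 and the difference 2.14. What sets that library apart was not tested.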

How the results depend on the processing

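The interaction passed for 10 of 10 members under every alternative run, and no member value that was called turned in direction. In GFP cells 1 member was called higher; it was 3 without a filter on low counts (ETV5, DUSP6 and SPRY2, where the SE of DUSP6 shrank from 0.273 to 0.0585), 3 with all 12 libraries in the fit (ETV5, DUSP6 and PHLDA1), 0 with a log2FC above 1, and 0 to 4 when 1 library was left out, 0 without GFP without Cyss replicate 3, 4 without GFP without Cyss replicate 1 and 2 without GFP with Cyss replicate 1. The count called lower, 0, was 0 to 1 when 1 library was left out. In NRF2 cells 10 were called, 5 with a log2FC above 1. With Cyss 1 was called higher (DUSP4); it was 0 with all 12 libraries in the fit (adjusted p = 0.143 in edgeR), 0 with a log2FC above 1, and 0 to 1 when 1 library was left out, 0 without NRF2 with Cyss replicate 1; with no fold threshold 1 was called lower (SPRED2). Without Cyss 10 were called, 5 with a log2FC above 1.

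Among all genes called higher and lower, main counts were 274 and 93 for the GFP response, 1176 and 887 for the NRF2 response, 237 and 35 with Cyss, 1034 and 708 without Cyss, and 1585 and 1084 for the interaction. Counts that moved by more than 1.5 times were 543 and 490, 2633 and 2379, 724 and 398, and 2425 and 2551 with no fold threshold; 42 and 5, 197 and 67, 76 and 8, and 146 and 40 with a log2FC above 1; with DESeq2, 155 and 15 with Cyss (87 and 13 at default settings) and 432 lower without Cyss (392 at default settings); without a filter, 185 lower in GFP cells and 66 lower with Cyss; with all 12 libraries, 19 lower with Cyss; at an adjusted p of 0.05, 17 lower with Cyss and 528 lower for the interaction; and with library size only, 1397 lower in NRF2 cells and 1981 lower for the interaction. Leaving out 1 library moved the all-gene counts to 55 to 133 lower in GFP cells, 142 to 254 higher and 15 to 56 lower with Cyss, 425 to 840 lower without Cyss, and 913 to 2119 higher and 482 to 1562 lower for the interaction. Scaled by library size only, the share of called genes that were higher was 40.1% against 57% in the response of NRF2 cells, 46.7% against 59.4% between NRF2 and GFP cells without Cyss and 36.2% against 59.4% for the interaction; the median of all genes was then -0.07 in the first, and all 10 members kept their calls. Whether replicate numbers pair the libraries is not known from the labels. With a replicate block the GFP log2FC of DUSP6 was 0.67 (adjusted p = 0.162 in edgeR) and no call of a member changed. List counts and medians without GFP without Cyss replicate 3 were added after seeing the data: among ERK lists, MAFF was lost in GFP cells, DUSP10 and RASA1 were gained between NRF2 and GFP cells without Cyss, and NF1 and PEA15 traded places in the interaction. The cause of these changes was not tested. With 3 libraries per group the intervals in GFP cells are wide, up to 1.37 for DUSP6.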

Other observations

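Genes controlled by the stress factor ATF4, which is induced when amino acids run short, rose in both kinds of cells. Of 8 listed, 8 rose in GFP cells and 7 in NRF2 cells without Cyss, with median log2FC of 1.41 and 1.22. Over all genes, 1.57% and 6.81% were called higher. SESN2, a leucine-sensing inhibitor of mTORC1, rose by 1.72 and 1.69, and DDIT4, another inhibitor of mTORC1, by 1.99 and 1.27. Between NRF2 and GFP cells without Cyss, 5.98% of all genes were called higher and 4.09% lower. None of the 8 was higher in NRF2 cells there, whereas all 10 ERK feedback genes were, and DDIT4 (-0.73) and DDIT3 (-0.36) were lower. In the interaction 4 passed, all negative (DDIT4, DDIT3, CHAC1 and ASNS), and 3 without GFP without Cyss replicate 3. With all libraries, 6.13% of all genes were called lower in the interaction.

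Of 8 listed NRF2 targets, 5 were higher in NRF2 than in GFP cells with Cyss and 7 without, among them OSGIN1 by 1.03 with Cyss and SLC7A11, the cystine transporter, by 0.64 in both media. Over all genes, 1.36% were called higher with Cyss and 5.98% without. In GFP cells 5 of the 8 fell without Cyss, among them TXNRD1 (-0.61) and NQO1 (-0.42), and HMOX1 rose by 0.44. In NRF2 cells 3 fell and none rose. Over all genes, 0.533% were called lower in GFP cells and 5.14% in NRF2 cells. The interaction passed for 2 of the 8, TXNRD1 (0.27) and NQO1 (-0.16), and for 3 without GFP without Cyss replicate 3 (GCLM at 0.31). It passed for 10 of 10 ERK feedback genes, and over all genes 8.97% were called higher and 6.13% lower in it. Adjusted p-values are from edgeR's quasi-likelihood test, and both lists were chosen with earlier results of these data known.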
